A study of Mus musculus with 26 samples.

Results

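Cmpd17b, a small-molecule agonist of formyl peptide receptors, was compared with vehicle in the left ventricle of BPH/2J mice, an inbred strain with genetically high blood pressure. The comparison takes 13 of the 26 libraries of the series: 6 from BPH/2J mice on Cmpd17b and 7 from BPH/2J mice on vehicle. Mice received 50 mg/kg per day intraperitoneally, or vehicle, over 28 days, and polyadenylated RNA of the ventricle was sequenced from separately numbered animals. The labels give neither sex, age, vehicle composition nor blood pressure of the single animals. The labels name no transgene, and both groups share the strain and the period of treatment. The normotensive BPN/3J strain, with 7 vehicle and 5 Cmpd17b libraries, entered the fits. Beyond that it is used where the strains are compared, on vehicle or in the drug difference, and for the mitochondrial share. A seventh library labelled BPH/2J on Cmpd17b was left out because it had no ventricular profile: Myh6, the predominant ventricular myosin heavy chain in mice, stood at 16.3 CPM (counts relative to library size) there, against 15333 to 21874 CPM in the 13 libraries used. Kap, an androgen-regulated protein of the kidney proximal tubule, stood at 24939 CPM there, against 0.58 to 80.3 CPM.

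Formyl peptide receptors are G-protein-coupled receptors of neutrophils, monocytes and macrophages that sense bacterial and mitochondrial formylated peptides. They also bind annexin A1, through which they can promote the resolution of inflammation. In a pressure-loaded ventricle, cardiomyocytes re-express natriuretic peptides and fetal contractile proteins, and fibroblasts lay down collagens and the proteins that cross-link them. The question the comparison addresses is whether an agonist given for weeks alters such programmes in hypertensive animals.

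No gene differed between Cmpd17b and vehicle in the BPH/2J ventricle at an adjusted p under 0.05. The 25 libraries with a ventricular profile were fitted together with a batch term by the quasi-likelihood test of edgeR, with Benjamini-Hochberg adjustment, and 0 of 15543 genes (0%) were called in either direction. At an unadjusted p under 0.05 there were 287 genes (1.85%), 144 higher and 143 lower. This lies below the share of 0.05 that p-values give on average where nothing differs. With only the BPH/2J libraries fitted, edgeR called 0 genes, and 638 (4.34%) had an unadjusted p under 0.05. Without BPN_vehicle replicate 7 it called 0, with 503 (3.25%). The p-values thus depended on libraries outside the comparison. One Cmpd17b library, replicate 6, stood apart from the other 12 and is described below. Without it, 0 of 15478 genes (0%) were called, and 233 (1.51%) had an unadjusted p under 0.05, 90 higher and 143 lower. DESeq2 called 0 genes with and without replicate 6, with 324 and 265 at an unadjusted p under 0.05, and limma voom called 0, with 588 and 570. The smallest adjusted p by edgeR was 1 in both fits, so each log2 difference of Cmpd17b minus vehicle in BPH/2J below has an adjusted p of 1 in these fits. In the same 25-library fit, 2936 genes (18.9%) were called between vehicle-treated BPH/2J and BPN/3J mice, a comparison that shares the BPH/2J vehicle libraries.

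The size of the differences was bounded for most expressed genes, with the spread estimated over all libraries fitted, of both strains. Among the 11673 genes with an average of at least 1 on the log2 CPM scale, 99.2% had an unadjusted 95% interval lying within a 2-fold difference in both directions, and 94.6% one within 1.5-fold. Without replicate 6 the same held for 99.2% and 93.8% of 11639 genes. The median log2 difference over all genes was 0.00 with replicate 6, with the 5th and 95th percentiles at -0.28 and 0.31, and at -0.33 and 0.26 without it. Low-count genes were less well bounded: over all genes with an interval, 88.2% were within 2-fold with replicate 6 and 86.9% without it.

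Total counts ran from 28273800 to 40669600 in the 6 Cmpd17b libraries and from 25476100 to 48648200 in the 7 vehicle libraries. The labels put 5 Cmpd17b and 5 vehicle libraries in batch 1. Batch 2 holds 2 vehicle libraries and 1 Cmpd17b library, replicate 6. Without replicate 6 the Cmpd17b group lies in batch 1 alone, so the batch term is then estimated from the other groups. CPM are scaled by TMM factors, except those of Myh6 and Kap set beside the left-out library, which are scaled by total counts alone. All CPM are compared between libraries, not between genes.

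The receptors themselves were hardly detected. Fpr1, the receptor for bacterial formyl peptides, had 0 to 10 counts in a Cmpd17b library and 0 to 19 in a vehicle library, with sums of 23 and 26. Fpr2, which also binds annexin A1 and lipid mediators, had 1 to 7 and 0 to 10 counts, with sums of 21 and 27, and Fpr3 had 0 counts in every library of both groups. None of the 3 had enough counts to be tested, and differences in them were not detectable at this depth. Anxa1, which encodes annexin A1, was well measured, at 18.9, 23.6 and 35.9 CPM (lowest, median and highest) on Cmpd17b and 22, 24.4 and 28.6 CPM on vehicle. Its log2 difference was -0.00 ± 0.15 (SE), and -0.17 ± 0.14 without replicate 6. The groups overlapped, and the highest of the 13 values was that of replicate 6. Of 18 tested genes of the receptor and resolution list, which holds the lipoxygenases, resolvin receptors and annexin, 0 were called and the median log2 difference was 0.01, or -0.02 without replicate 6.

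Replicate 6 differed from the other BPH/2J libraries in many genes at once. Of the 11673 expressed genes, 52 stood more than 2-fold above the highest and 3 more than 2-fold below the lowest of the other 12 libraries, where the other libraries had 0 to 7 and 0 to 3 such genes. Of 47 expressed genes of the extracellular matrix list, 21 were more than 2-fold above all other libraries, as were 7 of 21 of the wall stress list. Postn, encoding periostin, a matrix protein of activated fibroblasts, stood at 506 CPM, against 22.4 to 80.8 in the other 12 libraries. Lox, the enzyme that cross-links collagen, stood at 37.7 CPM against 1.2 to 4.14. Tnc, encoding tenascin C, stood at 32.5 CPM against 0.204 to 2.15. The fibrillar collagens Col1a1 and Col3a1 stood at 305 and 746 CPM, where the other libraries lay at 37.3 to 78.4 and 102 to 269.5. Each of these genes had its 5 other Cmpd17b libraries within or below the range of the vehicle libraries.

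Genes of cardiomyocyte load and of the clock set the same library apart. Nppa, which encodes atrial natriuretic peptide, stood at 2546 CPM in replicate 6 and at 325 to 886 CPM in the other 12. Acta1, the skeletal alpha-actin of the fetal programme, stood at 1587 CPM, and at 373 to 723 in the others. Rcan1, a calcineurin inhibitor induced by calcineurin activity, stood at 290.4 CPM against 70.9 to 92.5. Dbp and Ciart, output genes of the circadian clock, were instead low, at 43.9 and 1.31 CPM against 93.4 to 162 and 5.68 to 17.5. Tcap, encoding the sarcomeric protein telethonin, was also low, at 937 CPM against 1342 to 2809. These genes and the further ones named for replicate 6 were picked after their values were seen. Vehicle replicates 1 and 7, which are also of batch 2, were among the other 12 libraries, with 1 gene each more than 2-fold above all others, where replicate 6 had 52.

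**Figure D1:**
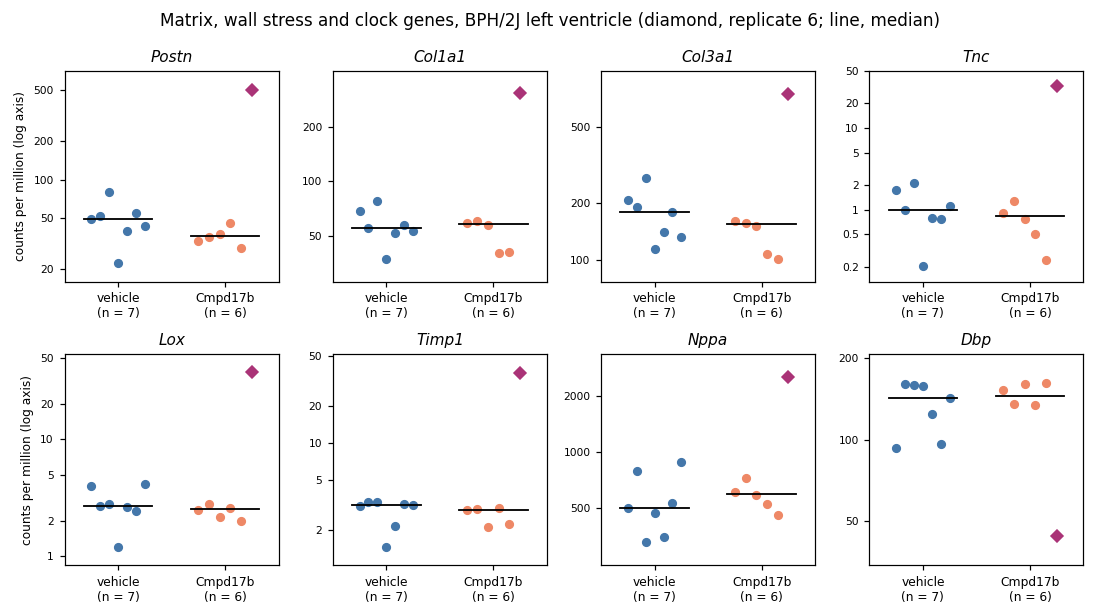
CPM of 8 genes in each BPH/2J library on log axes, vehicle (7 libraries) beside Cmpd17b (6 libraries), with the group median as a line and replicate 6 as a diamond. Replicate 6 lies above all other libraries for Postn, Col1a1, Col3a1, Tnc, Lox, Timp1 and Nppa and below them for Dbp, while the other Cmpd17b libraries overlap vehicle.

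The matrix and fibrosis genes had opposite signs with and without replicate 6. Of 50 tested genes 0 were called. With replicate 6, 44 were higher on Cmpd17b in the fitted mean and the median log2 difference was 0.23. Without it, 44 of 49 were lower and the median was -0.12, beside a median of -0.00 over all genes, and in batch 1 alone it was -0.10. Col1a1 stood at 40.3, 58 and 305 CPM on Cmpd17b and 37.3, 55.3 and 78.4 on vehicle. The log2 difference of Col1a1 was 0.54 ± 0.35, and -0.17 ± 0.22 without replicate 6. Col3a1 went from 0.26 ± 0.33 to -0.39 ± 0.21, and Postn from 0.68 ± 0.55 to -0.51 ± 0.28. The intervals of Col1a1, Col3a1 and Postn included 0 in both fits. Of the 50 genes, 3 had an unadjusted p under 0.05 with replicate 6, each with a positive value, beside 1.85% of all genes. The smallest was that of Cthrc1, with an interval from 0.38 to 3.32. Cthrc1 stood at 6.69 CPM in replicate 6 and was not tested without it. Without replicate 6, 1 of 49 had such a p, with a negative value, beside 1.51% of all genes.

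Of 22 tested metalloproteinase and inhibitor genes 0 were called. With replicate 6, 13 had positive values and the median was 0.01, and without it 18 had negative values and the median was -0.08. Timp1, the inhibitor of matrix metalloproteinases, stood at 2.1, 2.9 and 36.9 CPM on Cmpd17b and 1.46, 3.16 and 3.33 on vehicle. It had a log2 difference of 1.10 ± 0.61, and -0.25 ± 0.41 without replicate 6. Mmp2, a gelatinase of fibroblasts, had -0.01 ± 0.13 and -0.22 ± 0.11. Mfap5, a microfibril protein that is also a fibroblast marker, had 0.33 ± 0.36 with replicate 6. Without it Mfap5 had -0.46 ± 0.19, with an unadjusted 95% interval from -0.86 to -0.07, the only matrix gene with an unadjusted p under 0.05. Of 10 fibroblast markers all had negative values without replicate 6, with a median of -0.19, while 5 of 10 did with it, with a median of 0.03. Tcf21, a transcription factor of cardiac fibroblasts, stood at 5.75, 7.1 and 11.6 CPM on Cmpd17b and 7.18, 9.11 and 11.6 CPM on vehicle, a log2 difference of -0.25 ± 0.12, and -0.38 ± 0.12 without replicate 6. The groups overlapped, with 3 Cmpd17b libraries below every vehicle library. The summed level of the 10 markers was 1481 to 1759.8 CPM on Cmpd17b without replicate 6, within the 1479 to 1824 CPM of vehicle. Replicate 6 had 1996 CPM. Of the 10 markers 0 were called in either fit. Bulk tissue could in any case not tell fewer fibroblasts from less RNA of these genes per fibroblast.

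**Figure D2:**
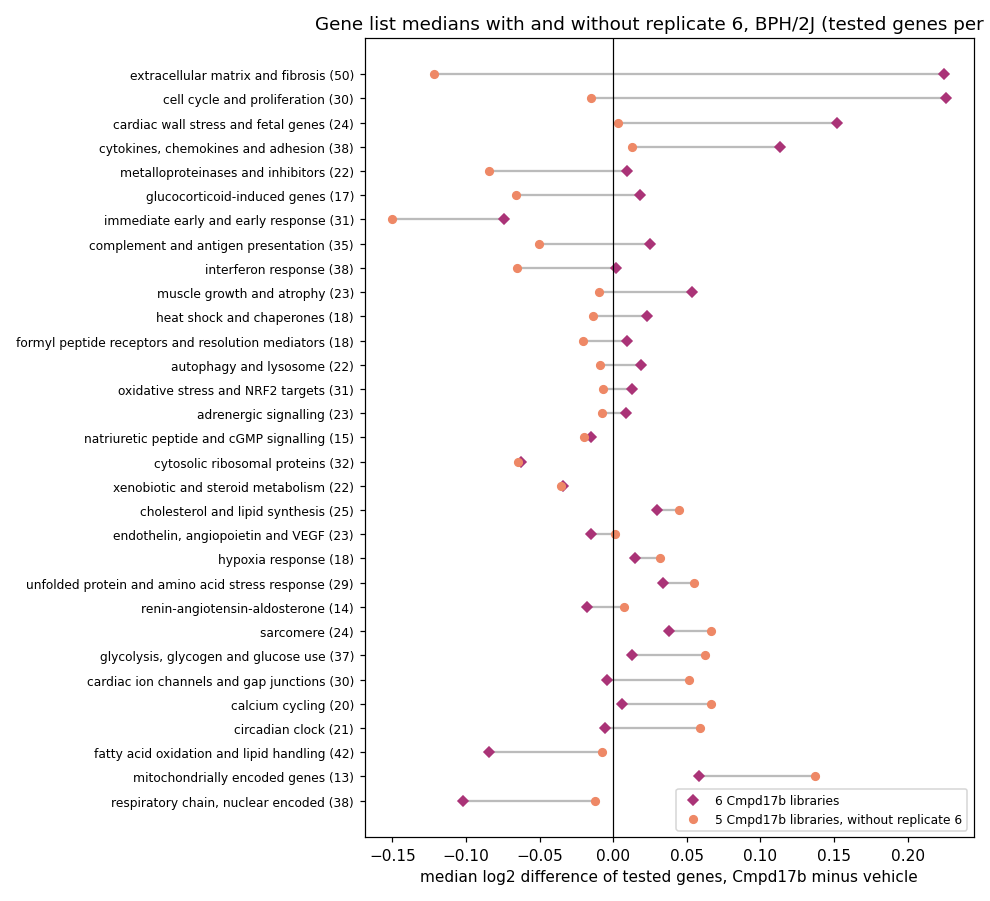
Median log2 difference (Cmpd17b minus vehicle, BPH/2J) over the tested genes of each of 31 pathway lists, with 6 Cmpd17b libraries (diamonds) and without replicate 6 (circles), the number of tested genes standing after each name. The matrix list moves from 0.23 to -0.12, the cell cycle list from 0.23 to -0.02 and the wall stress list from 0.15 to 0.00.

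Of 24 tested wall stress and fetal genes 0 were called, and the median log2 difference was 0.15 with replicate 6 and 0.00 without it. Without it 13 values were positive and 11 negative, from -0.67 to 0.31, and 16 genes were bounded within 1.5-fold. Nppa stood at 453, 594 and 2546 CPM on Cmpd17b and 325, 499 and 886 on vehicle. For Nppa the log2 difference was 0.65 ± 0.39, and 0.10 ± 0.37 without replicate 6, with an interval from -0.67 to 0.87. Nppb, which encodes brain natriuretic peptide, had 0.25 ± 0.18 and 0.05 ± 0.18. Ankrd1, a stretch-responsive protein of the sarcomere, had 0.25 ± 0.19 and 0.05 ± 0.19. In these 3 genes the Cmpd17b libraries other than replicate 6 lay within the vehicle range.

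Acta1 had the smallest p of the list with replicate 6, and Atf3 without it. Acta1 stood at 528, 619 and 1587 CPM on Cmpd17b and at 373, 506 and 612 CPM on vehicle, with 3 of 6 Cmpd17b libraries above every vehicle library. The log2 difference was 0.65 ± 0.19, and 0.31 ± 0.15 without replicate 6, with an interval from -0.01 to 0.62. Atf3, a stress-induced transcription factor, stood at 1.44, 2.38 and 8.06 CPM on Cmpd17b and at 2.81, 3.61 and 5.75 CPM on vehicle. Its log2 difference was -0.37 ± 0.27, and -0.67 ± 0.28 without replicate 6, with an interval from -1.24 to -0.09, where 4 of 5 Cmpd17b libraries lay below every vehicle library.

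The contractile apparatus and calcium handling were measured tightly. Myh6 stood at 15947, 19059 and 21769 CPM on Cmpd17b and 14493, 18558 and 20468 on vehicle, a log2 difference of 0.01 ± 0.10, and -0.01 ± 0.11 without replicate 6. Myh7, the slow isoform that rises in a failing mouse ventricle, had -0.02 ± 0.14 and, without replicate 6, -0.14 ± 0.15. Of 24 sarcomere genes and 20 calcium cycling genes 0 were called, and each of them was bounded within 2-fold in both fits. Atp2a2, the calcium pump of the sarcoplasmic reticulum, had 0.01 ± 0.17 with and 0.06 ± 0.18 without replicate 6. Its inhibitor Pln had -0.02 ± 0.15 and 0.09 ± 0.15. The Cmpd17b and vehicle ranges overlapped for each of these genes.

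Genes of blood pressure control in the ventricle did not separate the groups either. Agtr1a, the angiotensin II receptor, stood at 29.3, 42.7 and 53.3 CPM on Cmpd17b and 39.1, 42.2 and 45.3 on vehicle. Agtr1a had a log2 difference of 0.01 ± 0.13 with an interval from -0.25 to 0.27. Without replicate 6 it had 0.14 ± 0.12, with an interval from -0.11 to 0.39. The groups overlapped, with replicate 6 the lowest of all libraries. For the genes that follow, the value with replicate 6 stands before that without it. Ace, the angiotensin-converting enzyme, had 0.17 ± 0.14 and -0.05 ± 0.12, and Agt, the angiotensin precursor, 0.11 ± 0.20 and 0.23 ± 0.20. Edn1, which encodes endothelin-1, had -0.01 ± 0.21 and -0.08 ± 0.23, and its muscle receptor Ednra -0.05 ± 0.14 and -0.11 ± 0.15. Nos3, the endothelial nitric oxide synthase, had -0.08 ± 0.18 and -0.11 ± 0.20, and Adrb1, the beta-1 adrenergic receptor, -0.11 ± 0.18 and -0.00 ± 0.19. The intervals of all these genes included 0 in both fits. Of 14 renin-angiotensin-aldosterone genes, 23 endothelin, angiopoietin and VEGF genes, and 23 adrenergic signalling genes 0 were called, and their medians lay between -0.02 and 0.01 in both fits.

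**Figure D3:**
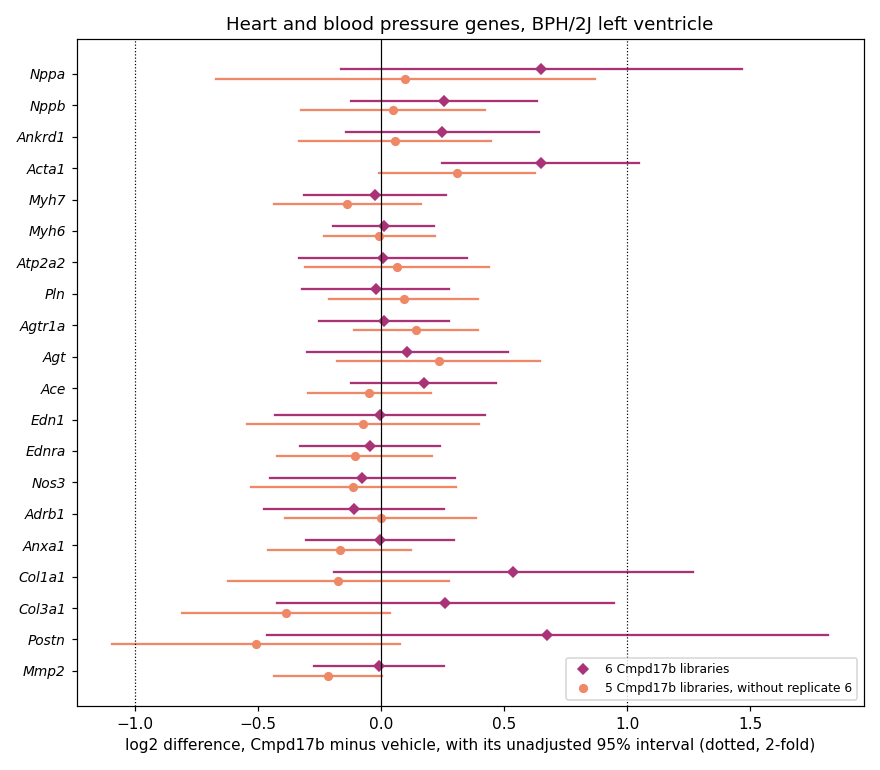
Log2 difference (Cmpd17b minus vehicle, BPH/2J) with its unadjusted 95% interval for 20 heart and blood pressure genes, with 6 Cmpd17b libraries (diamonds) and without replicate 6 (circles), dotted lines marking a 2-fold difference. With replicate 6 the interval of Acta1 lies above 0, and without it all 20 intervals include 0.

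The genes with the smallest unadjusted p are described by their levels, since none passed the adjusted threshold. Klf10, a transcription factor induced by TGF-beta, stood at 14.5, 17.5 and 20.2 CPM on Cmpd17b and at 10.4, 12.3 and 14.3 CPM on vehicle. All 6 Cmpd17b libraries lay above all 7 vehicle libraries. The log2 difference was 0.52 ± 0.13, 0.43 ± 0.14 without replicate 6 and 0.45 in batch 1 alone. Slc25a23, a calcium-regulated ATP-Mg carrier of the inner mitochondrial membrane, stood at 43, 46.2 and 48.6 CPM against 33.2, 37.7 and 42.4 CPM, and again all 6 lay above all 7. Slc25a23 had a log2 difference of 0.28 ± 0.07, 0.23 ± 0.07 without replicate 6 and 0.24 in batch 1 alone. Over all genes, 12 of 15543 (0.0772%) had groups that did not overlap, 8 higher and 4 lower, and 61 of 15478 (0.394%) without replicate 6.

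Fstl3, which encodes a secreted inhibitor of activin and myostatin, had the smallest p with replicate 6. It stood at 3.15, 4.02 and 8.88 CPM on Cmpd17b and at 2.57, 2.95 and 3.29 CPM on vehicle, with 4 of 6 Cmpd17b libraries above every vehicle library and replicate 6 the highest. The log2 difference was 0.70 ± 0.16 and, without replicate 6, 0.44 ± 0.13. The other 22 tested genes of the muscle growth and atrophy list, which includes the activins and ubiquitin ligases, were also not called, and the list's median was 0.05 and -0.01. Meis3, a homeobox factor, had 0.46 ± 0.13 and 0.43 ± 0.14, and Ulk3, a kinase related to autophagy initiators, 0.29 ± 0.08 and 0.21 ± 0.08. In both, 5 of 6 Cmpd17b libraries lay above all vehicle libraries.

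**Figure D4:**
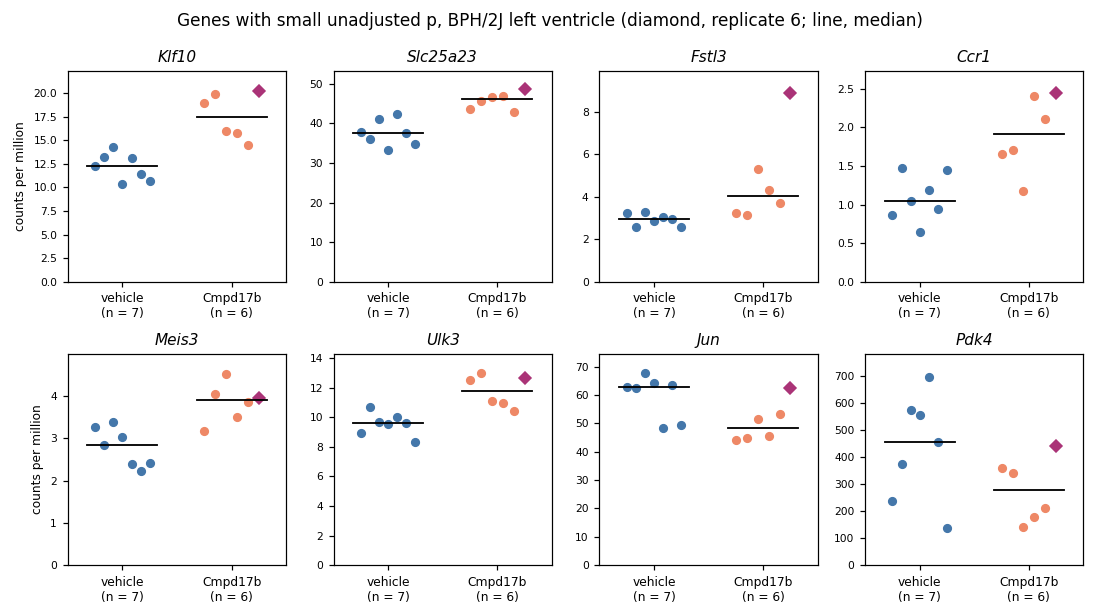
CPM of 8 genes with small unadjusted p in each BPH/2J library, vehicle (7 libraries) beside Cmpd17b (6 libraries), on linear axes from 0 with the median as a line and replicate 6 as a diamond. The groups do not overlap for Klf10 and Slc25a23 and overlap for the other 6 genes.

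Ccr1, Ms4a6d and Fcgr2b, 3 genes expressed by myeloid cells, were among the 10 with the smallest p with replicate 6. Ccr1, a chemokine receptor of monocytes and neutrophils, stood at 1.18, 1.91 and 2.44 CPM on Cmpd17b and 0.639, 1.04 and 1.47 CPM on vehicle, with 5 of 6 above every vehicle library. Its log2 difference was 0.84 ± 0.22, and 0.78 ± 0.24 without replicate 6. Ms4a6d, a membrane protein of macrophages, had 0.81 ± 0.22, and 0.51 ± 0.22 without replicate 6, which stood at 5.33 CPM against 0.967 to 1.95 on vehicle. Fcgr2b, the inhibitory Fc receptor, had 0.41 ± 0.12 and 0.24 ± 0.11. Macrophage markers as a list had 14 of 15 positive values with replicate 6 and 11 of 15 without, with medians of 0.14 and 0.11. Of these 15, 0 were called, and 0 had an unadjusted p under 0.05 with replicate 6 and 1 without it, beside 1.85% and 1.51% of all genes. Their summed level was 171 to 274 CPM on Cmpd17b, highest in replicate 6, and 159 to 211 CPM on vehicle. Lyve1, a marker of resident macrophages and of lymphatic endothelium, had 0.25 ± 0.16 and, without replicate 6, 0.43 ± 0.15. Ccr2, the chemokine receptor of recruited monocytes, had 0.41 ± 0.41 and -0.43 ± 0.33, and Ms4a7, a macrophage membrane protein, 0.14 ± 0.35 and -0.53 ± 0.28. Neutrophil and mast cell markers had medians of -0.05 and -0.10, with 0 of 8 called.

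Without replicate 6, 3 of 38 tested genes of the cytokine, chemokine and adhesion list had an unadjusted p under 0.05, all with positive values. These were Ccl8, Ccl12 and Ccl11, picked after their values were seen. With replicate 6 it was 2 of 38. The shares over all genes were 1.51% without and 1.85% with replicate 6. Ccl8, a ligand for monocyte receptors, stood at 1.85, 2.66 and 7.53 CPM on Cmpd17b and 0.332, 1.39 and 2.52 CPM on vehicle, with 3 of 6 libraries above every vehicle library. Its log2 difference was 1.24 ± 0.44 and 1.22 ± 0.50 without replicate 6. Ccl12 had 1.06 ± 0.40 and 0.92 ± 0.44, and Ccl11, or eotaxin, 0.26 ± 0.24 and 0.51 ± 0.21. Of 38 tested genes of the cytokine, chemokine and adhesion list 0 were called, and the median was 0.11, or 0.01 without replicate 6. Interferon response genes had a median of 0.00, or -0.07 without replicate 6, with 0 of 38 called. Replicate 4 alone was high in several of them, with Igtp, an interferon-inducible GTPase, at 37.8 CPM where vehicle libraries lay at 5.92 to 12.

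Among genes with negative values, the leading ones without replicate 6 were mostly near the limit of detection. Tnnt3, the fast skeletal troponin T, stood at 0, 0.111 and 0.553 CPM on Cmpd17b and 0.141, 0.482 and 1.61 CPM on vehicle. Cacna2d3, a calcium channel subunit, stood at 0.0753, 0.191 and 0.378 CPM and at 0.172, 0.404 and 0.715 CPM, and both genes' groups overlapped. Better expressed was Jun, the immediate early transcription factor, at 44, 48.6 and 62.5 CPM on Cmpd17b and 48.5, 62.9 and 67.8 CPM on vehicle. Jun had a log2 difference of -0.25 ± 0.11, and -0.34 ± 0.11 without replicate 6, with 3 Cmpd17b libraries below every vehicle library. Immediate early genes as a list had a median of -0.07, and -0.15 without replicate 6, with 23 of 31 below 0 and 0 called.

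Among genes of fuel use, Pdk4 and Acot1 had the smallest p of the fatty acid oxidation list without and with replicate 6. Pdk4, the kinase that shuts pyruvate out of oxidation, stood at 140.2, 276 and 441 CPM on Cmpd17b and 138, 456 and 695 CPM on vehicle, with overlapping groups. The log2 difference was -0.60 ± 0.34, -0.93 ± 0.33 without replicate 6 and -1.12 in batch 1 alone. Acot1, an acyl-CoA thioesterase induced by fatty acids, had -0.45 ± 0.19 and -0.48 ± 0.21. Of 42 fatty acid oxidation genes 36 had negative values with replicate 6 and 23 without, with medians of -0.08 and -0.01. Of 38 nuclear-encoded respiratory chain genes 36 and 19 did, with medians of -0.10 and -0.01. Neither list had a called gene.

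The share of counts on mitochondrially encoded genes was higher on Cmpd17b without replicate 6 and within batch 1, and the difference did not pass the test with replicate 6. It was 33.0% ± 3.88 (SD, n = 6) on Cmpd17b and 31.4% ± 1.54 (n = 7) on vehicle, with an exact two-sided permutation p of 0.358. Without replicate 6, at 25.4%, it was 34.5% ± 1.23 (n = 5), an exact permutation p of 0.00379 and 0.019 after Benjamini-Hochberg adjustment over 5 such tests. Within batch 1 it was 34.5% ± 1.23 (n = 5) against 32.3% ± 0.685 (n = 5), an exact permutation p of 0.00794, which is the smallest that 5 against 5 can give (adjusted 0.0198). In BPN/3J the share was 35.0% ± 1.74 (n = 5) on Cmpd17b and 32.9% ± 2.97 (n = 7) on vehicle, an exact permutation p of 0.198. Within batch 1 of BPN/3J the difference was 1 percentage point, against 2.06 over both batches, with an exact permutation p of 0.508. That batch holds BPN_vehicle replicate 7, which had the highest share of all libraries used, 37.7%. The same library had the lowest library weight in limma voom, 0.0799, and the BPN/3J share was not tested without it. Whether the strains differ in the drug difference of the share was not tested. The 2 vehicle libraries of batch 2 had the lowest vehicle shares, 29% and 29.6%, and the part of batch or RNA quality in the difference within batch 1 was not tested.

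**Figure D5:**
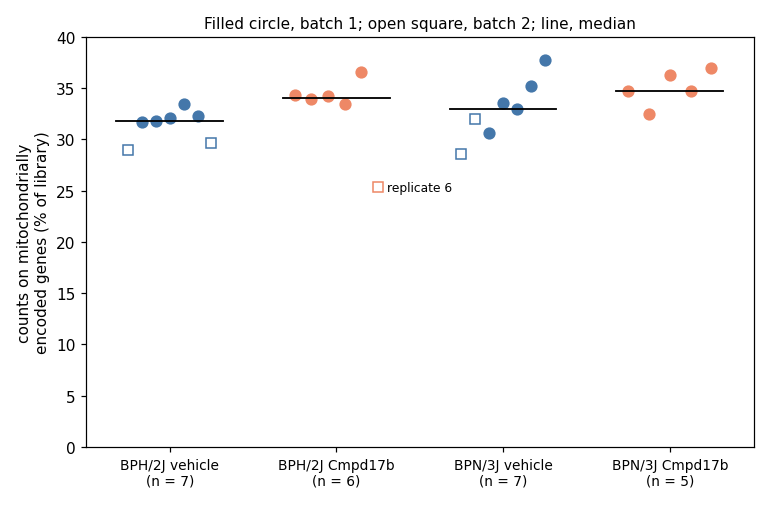
Share of counts on mitochondrially encoded genes, in percent of each library, for BPH/2J and BPN/3J mice on vehicle or Cmpd17b, with batch 1 as filled circles, batch 2 as open squares and the group median as a line. The 5 BPH/2J Cmpd17b libraries of batch 1 lie between 33.4% and 36.6% and the vehicle libraries between 29% and 33.4%, while replicate 6 lies at 25.4%.

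By gene, the mitochondrial difference was small. ND2, a subunit of complex I, stood at 9846, 19578 and 22209 CPM on Cmpd17b and at 12972, 16576 and 19094 CPM on vehicle, with 4 of 6 Cmpd17b libraries above every vehicle library and replicate 6 below them all. ND2 had a log2 difference of 0.13 ± 0.11, and 0.27 ± 0.10 without replicate 6. Of the 13 mitochondrially encoded genes, 5 had an unadjusted p under 0.05 without replicate 6, each with a positive value, and 0 with it. The shares over all genes were 1.51% and 1.85%, and 0 of the 13 were called in either fit. These 13 genes make up the share of counts tested above, so this count adds no separate support. Their median log2 difference was 0.06, and 0.14 without replicate 6. The nuclear-encoded respiratory chain, given above, did not share this sign. Cox6a2, the muscle form of a complex IV subunit, stood at 832, 868 and 954 CPM on Cmpd17b and 909.7, 937 and 1120.1 CPM on vehicle, a log2 difference of -0.20 ± 0.08, and -0.19 ± 0.09 without replicate 6, with 5 of 6 below every vehicle library.

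Over all pathway and marker lists together, 906 genes were tested and 0 were called, with 17 (1.88%) at an unadjusted p under 0.05, beside 1.85% of all genes. Without replicate 6 it was 20 of 904 (2.21%), beside 1.51%. The median log2 difference lay within 0.1 of 0 for 26 of 31 pathway lists with replicate 6 and for 28 without it. The lists beyond 0.1 were matrix, wall stress, respiratory chain, chemokines and cell cycle with replicate 6. Without it they were matrix, mitochondrially encoded and immediate early genes. The sign of the median differed between the fits in 16 lists.

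Markers of other cell types were checked beside these results. Ventricular cardiomyocyte markers summed to 47920 to 66078 CPM on Cmpd17b, lowest in replicate 6, and 53921 to 68484 CPM on vehicle. Erythroid markers had positive values in 8 of 8 genes in both fits, with medians of 0.23 and 0.31 and overlapping sums of 815 to 1741 and 827 to 1837 CPM. Adipocyte markers had negative values in 5 of 5 genes in both fits, with medians of -0.69 and -0.42 and overlapping sums of 137 to 172 and 127 to 175 CPM. Of these sums most was Plin4, at 116 to 147 CPM on Cmpd17b and 100.3 to 153 CPM on vehicle. The sums therefore say little about the other adipocyte markers. Skeletal muscle markers had negative values in 5 of 5 genes with replicate 6 and 3 of 5 without, with medians of -0.37 and -0.59, and none of these 3 lists had a called gene. Vehicle replicate 7 held atrial transcripts, with Myl7, the atrial light chain, at 68.8 CPM where the other vehicle libraries had at most 0.184. Kap varied from 0.582 to 63.5 CPM on Cmpd17b and from 5.51 to 77.2 CPM on vehicle. The part of these transcripts in the differences above was not tested.

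The drug difference was set against that in the normotensive strain. For the BPH/2J difference minus the BPN/3J difference 0 of 15543 genes (0%) were called by edgeR, with a smallest adjusted p of 0.917 and 595 genes (3.83%) at an unadjusted p under 0.05. DESeq2 and limma voom also called 0, with 670 and 702 at an unadjusted p under 0.05. Without replicate 6, edgeR called 0 genes (0%), with a smallest adjusted p of 0.983 and 536 (3.46%) at an unadjusted p under 0.05. In BPN/3J alone 0 genes (0%) were called, with 1506 (9.69%) at an unadjusted p under 0.05. Nppa had 0.65 ± 0.39 in BPH/2J and -1.18 ± 0.43 in BPN/3J, a difference of 1.83 ± 0.58, or 1.39 ± 0.50 without replicate 6. Pdk4 had -0.60 ± 0.34 and 0.85 ± 0.36, a difference of -1.45 ± 0.50, or -1.62 ± 0.45 without replicate 6. Klf10 had 0.52 ± 0.13 and -0.04 ± 0.14, a difference of 0.56 ± 0.19, or 0.49 ± 0.19 without replicate 6. None of these 3 differences passed the adjusted threshold. All 3 are given only with BPN_vehicle replicate 7 in the fit, the library with the lowest weight in limma voom, 0.0799. Nppa ran from 169 to 876 CPM in the BPN/3J vehicle libraries, with a median of 333 CPM. Without BPN_vehicle replicate 7, edgeR also called 0 genes for the difference between strains, with 578 (3.73%) at an unadjusted p under 0.05.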

How the data were processed

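The authors deposited 1 table of estimated counts for 40413 genes named by symbol. Trim Galore 0.6.7 and STAR 2.7.9a, with the GRCm39 build, are named in the submitters' processing notes for trimming and alignment. For the counting program, annotation and strand setting the entry is "not given in the sources used here": overlapping genes and near-identical copies are uncertain. Of the deposited estimated counts, 97.8% lay within 0.01 of a whole number, and all were rounded.

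Groups follow strain and treatment in the sample labels. Replicates were numbered in sample order, and where no label says that animals were handled separately p-values measure only the spread between these samples. No 2 libraries of the compared groups were identical among 36 pairs. Genes were kept by filterByExpr, scaled by TMM and tested in R 4.3.3 with edgeR 4.0.16, by its robust quasi-likelihood method with group and batch terms, with Benjamini-Hochberg adjustment over all genes and a threshold of 0.05. The fit took 25 libraries, and 24 without replicate 6. Intervals are 95% and unadjusted, and the SE is the log2 difference divided by the root of F. Library shares were compared by exact permutation. The scripts were tested on simulated data. DESeq2 1.42.0 and limma 3.58.1 were alternatives.

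The comparison, gene lists and named genes were chosen with earlier results of these data known. Named genes are those called in both fits (none), otherwise the 10 with the smallest p in each fit. Members of the lists and fixed heart and blood pressure genes were also named. Further genes were added after their values were seen, among them Ccl8, Ccl12, Acot1, Ccr2, Ms4a7 and Igtp. Part of the named genes is printed. Of 987 list symbols, 4 were not in the table.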

Additional observations from a re-analysis of the deposited data

Results flagged for a closer look

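A value was singled out here when the highest or lowest library of a group of 6 or 7 lay farther from its nearest neighbour, as a share of the group's range, than Dixon's 95% limit allows. Of 114 group values of printed genes and of the mitochondrial share, 31 (27.2%) met this. Replicate 6 of Cmpd17b was the highest library in 18 of them and the lowest in 5. Several of these genes had been picked for replicate 6 after their values were seen. The limit assumes normally distributed values and was applied to CPM without a log scale. No chance rate can therefore be set beside the 27.2%.

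The gap shares of replicate 6 as the highest library were 0.965 for Postn, 0.923 for Col1a1, 0.908 for Col3a1, 0.968 for Tnc, 0.979 for Lox, 0.975 for Timp1, 0.966 for Mfap5 and 0.794 for Mmp2. These encode matrix proteins and their modifiers. Among wall stress genes they were 0.87 for Nppa, 0.785 for Nppb, 0.816 for Acta1, 0.748 for Ankrd1, 0.912 for Rcan1 and 0.728 for Atf3. For Anxa1 the share was 0.64, and for the myeloid genes Ms4a6d, Ccr2 and Ms4a7 it was 0.635, 0.906 and 0.853. As the lowest library, replicate 6 had shares of 0.639 for Pln, 0.845 for Tcap, 0.758 for Dbp, 0.719 for ND2 and 0.714 for the mitochondrial share of counts.

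Other libraries gave 8 values. Replicate 4 of Cmpd17b was the highest for Igtp (0.938), Ccl8 (0.742) and Myl7 (0.855), the last at 1.18 CPM against at most 0.172 in the other 5. Vehicle replicate 7 was the highest for Myl7 (0.997) and Adrb1 (0.646). Vehicle replicate 4 was the highest for Tnnt3 (0.718). Fpr1, with few counts, was highest in Cmpd17b replicate 5 (0.636) and in vehicle replicate 3 (0.78).

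The library labelled BPH/2J on Cmpd17b that entered no comparison carried Kap at 24939 CPM, where the other BPH/2J libraries reached at most 80.3 CPM.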

How the results depend on the processing

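No alternative called a gene. This held for the drug difference in 22 settings, without replicate 6 in 10, and for the difference between strains in 31, with smallest adjusted p of 0.243 (only the BPH/2J libraries fitted), 0.392 (with the kidney-profile library kept) and 0.579 (no filter, without replicate 6). The settings were RLE factors, DESeq2, limma voom, 2 other filters, no batch term, batch 1 alone, the kidney-profile library kept, only the BPH/2J libraries (not for the difference between strains), and, where replicate 6 was in the fit, each BPH/2J library left out in turn. Replicate 6 is not in batch 1, so batch 1 alone is the same fit with and without it. That fit stands in the counts for both, and 2 times among the 31 for the difference between strains. Of the BPN/3J libraries, BPN_vehicle replicate 7 alone was left out, an alternative added after seeing the data. At an unadjusted p under 0.05 there were 210 to 970 genes with replicate 6 and 174 to 1957 without, most with the kidney-profile library kept. The mitochondrial share differed by 1.55 percentage points as reported, by 3.07 without BPH_Cmpd17b replicate 6 and by 2.23 in batch 1 alone. The latter 2 passed the threshold but are not independent, since they share 5 Cmpd17b and 5 vehicle libraries. The permutation without replicate 6 took no account of batch, and the test in batch 1 alone was not planned. The cause was not tested. Without replicate 6, 35 of 140 named genes had a log2 difference of the other sign, and 38 of 138 in batch 1 alone. Both settings drop replicate 6, and several named genes were picked because that library was extreme for them. Part of these changes was therefore built in. With replicate 6 in the fit, the sign changed for 25 of 141 with limma voom and 26 of 141 with the kidney-profile library kept. No paired analysis was possible because the labels number no replicates that the groups share.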
